A study of Rattus norvegicus with 10 samples.

Results

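The inflammatory chemokine ligands considered here were 10 genes chosen by name, namely Ccl2, Ccl3, Ccl4, Ccl5, Ccl7, Cxcl1, Cxcl2, Cxcl10, Cxcl11 and Cxcl16. Of these 10, 9 were measured among the 9003 genes of the table, and Ccl7 was not analysed here. They were followed in RNA-seq libraries of splenic cells that were sorted as M2 macrophages, the anti-inflammatory type of macrophage, from WKY/NCrj rats. The 10 libraries fell into 4 groups, namely control rats in the physiological state (control, n = 2), rats with glomerulonephritis that received no cells (GN, n = 2), and macrophages of nephritic rats that had been given human adipose-derived mesenchymal stem cells (ASCs), sorted as dye-positive (EV+, n = 3) or dye-negative (EV-, n = 3). The ASC membranes had been labeled with DiD, so EV+ macrophages are those that carried dye from ASC membranes when sorted. The study's label takes this dye as transferred extracellular vesicles (EVs), which sorting by dye alone does not tell apart from engulfed parts of ASCs. By microscopy of sorted cells and of spleen and kidney sections, the paper found dye mostly at the surface of leukocytes. Few leukocytes held it mainly in the cytoplasm, and the paper therefore proposes transfer of EVs. EV- macrophages are cells of ASC-treated rats without that dye, not cells of untreated rats, and no group held macrophages of healthy rats given ASCs. Nephritis was induced in female rats aged 7 to 12 weeks with TF78, a mouse antibody to the glomerular basement membrane. Replicates are stated to be biological, but the number of animals behind each library is not given in the sources used here.

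Chemokines are small secreted proteins that bind receptors on leukocytes and guide them into tissue. The CC ligands Ccl2 and Ccl7 draw monocytes through Ccr2, whereas Ccl3, Ccl4 and Ccl5 draw monocytes, T cells and NK cells. Among the CXC ligands, Cxcl1 and Cxcl2 draw neutrophils through Cxcr2, Cxcl10 and Cxcl11 are induced by interferons and draw activated T cells through Cxcr3, and Cxcl16 is a membrane-bound ligand of Cxcr6 that also takes up oxidized lipids. Activated macrophages are a major source of most of these ligands, and transcription factors of the NF-kB family switch on many of their genes.

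The promoters of 4 ligands are shown, those of the interferon-inducible pair, of a neutrophil attractant and of Cxcl16, since the text returns to their levels in each library. RefSeq promoters of the GRCr8 assembly, from 250 bases before to 50 bases after each transcription start, matched 6 of the 10 ligands (Ccl7, Cxcl1, Cxcl2, Cxcl10, Cxcl11 and Cxcl16). Each is written 5′ to 3′ along its gene, and capitals mark matches, on either strand, to the NF-kB consensus, to the core of the interferon-stimulated response element (GAAANNGAAA) and to the AP-1 site (TGANTCA). Cxcl10 lies at chr14:15988816-15989115 on the plus strand, Cxcl11 at chr14:15973478-15973777 on the plus strand, Cxcl2 at chr14:17467206-17467505 on the minus strand and Cxcl16 at chr10:55669901-55670200 on the minus strand.
Cxcl10: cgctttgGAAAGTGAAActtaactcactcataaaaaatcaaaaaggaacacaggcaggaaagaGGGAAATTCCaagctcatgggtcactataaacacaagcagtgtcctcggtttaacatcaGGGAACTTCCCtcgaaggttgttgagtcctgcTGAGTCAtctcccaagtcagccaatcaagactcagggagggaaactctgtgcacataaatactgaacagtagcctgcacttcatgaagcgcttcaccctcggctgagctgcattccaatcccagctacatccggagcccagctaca
Cxcl11: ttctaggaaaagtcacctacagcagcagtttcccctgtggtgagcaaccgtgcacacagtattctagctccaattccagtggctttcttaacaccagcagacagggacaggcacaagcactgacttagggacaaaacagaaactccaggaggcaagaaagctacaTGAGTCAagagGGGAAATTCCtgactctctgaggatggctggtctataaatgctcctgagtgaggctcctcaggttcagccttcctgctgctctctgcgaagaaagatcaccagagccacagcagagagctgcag
Cxcl2: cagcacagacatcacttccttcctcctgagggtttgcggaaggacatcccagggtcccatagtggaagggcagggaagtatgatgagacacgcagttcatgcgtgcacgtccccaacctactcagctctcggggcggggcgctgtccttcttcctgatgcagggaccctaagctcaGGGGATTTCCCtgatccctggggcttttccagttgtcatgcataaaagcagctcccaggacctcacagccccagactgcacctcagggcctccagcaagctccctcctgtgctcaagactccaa
Cxcl16: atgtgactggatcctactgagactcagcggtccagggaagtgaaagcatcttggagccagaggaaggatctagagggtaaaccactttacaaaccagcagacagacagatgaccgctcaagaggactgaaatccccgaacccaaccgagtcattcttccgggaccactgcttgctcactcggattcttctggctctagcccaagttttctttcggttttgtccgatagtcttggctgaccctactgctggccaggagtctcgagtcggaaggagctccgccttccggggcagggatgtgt
The NF-kB consensus was found in 4 of the 5 measured ligands with a promoter entry (Cxcl1, Cxcl2, Cxcl10 and Cxcl11), against 7.51% of all 33469 promoters and 9.67% of the 7292 promoters of genes in the table. Matches on opposite strands of the same stretch overlap, as at base -128 and base -127 of Cxcl10, and so do both forward matches of Cxcl2, which begin at bases -74 and -73. The core of the interferon element was found in Cxcl10, beginning at base -243, against 3.92% of all promoters and 3.11% of those of genes in the table, and the AP-1 site in Cxcl10 and Cxcl11, against 7.33% and 4.81%. The promoter of Cxcl16 held none of these motifs in this window. A match describes the letters of a promoter and is not evidence that a factor bound it.

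The libraries held between 19270515 and 26617093 reads on the genes of the table. The table gives reads scaled to library size (CPM) and by the trimmed mean of M-values (TMM), and 3 reads were worth between 0.113 and 0.153 CPM. Of 16 macrophage markers, 13 were measured, and their summed level was 25252 to 25630 CPM in control and 29166 to 31365 CPM in the other groups. Lyz2 made up most of it, at 15325 to 20176 CPM. Lyz2, Csf1r, Cd68 and Adgre1 were high in every library, and Itgam, Aif1 and Hmox1 were at 140 to 687 CPM. Spic, C1qa, C1qb and C1qc were low, at 1.75 to 11.2 CPM. Cd163 and Mrc1, which commonly mark M2 macrophages, reached at most 1.81 CPM. Replicate 1 of EV- stood apart in genes of NK and T cells. Of 16 such genes, 14 were highest in that library, and their summed level was 2315 CPM there against 1500 to 1738 CPM in the other libraries. Most of that sum came from Cd4 and Cd8a, and rat macrophages can express Cd4 themselves. Yet Cd4 and Cd8a hardly set replicate 1 of EV- apart. Cd4 was at 1198 CPM there and at 1115 to 1345 CPM elsewhere, and Cd8a at 333.3 CPM against at most 329.8 CPM. Prf1 was at 335 CPM there against at most 51.4 CPM in any other library, and Il2rb at 84.1 CPM against at most 9.38 CPM. The T cell gene Cd3e was at 2.09 CPM in replicate 1 of EV-, at 0.31 CPM in its replicates 2 and 3, and at most at 0.0421 CPM (in 1 EV+ library) elsewhere. In such bulk libraries, fewer cells of a type and less RNA per cell cannot be told apart.

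Among the 9 measured ligands, Ccl3, Ccl2 and Cxcl10 differed among the 4 groups, and each was lowest in macrophages of ASC-treated rats. The test was limma on log2(CPM + 1) over all 9003 genes with Benjamini-Hochberg adjustment, and a gene was called at an adjusted p under 0.1. These 3 of 9 calls stand beside a background of 2.57% of all genes called. The adjusted p was 0.000107 for Ccl3, 0.0426 for Ccl2 and 0.0472 for Cxcl10. Without a single control library, the adjusted p of Ccl2 was 0.117 (replicate 1) or 0.160 (replicate 2), and without a GN library 0.141 (replicate 1) or 0.184 (replicate 2). That of Cxcl10 was 0.201 without control replicate 1, 0.139 without GN replicate 1 and 0.146 without GN replicate 2. For the other ligands the adjusted p was 0.162 for Ccl5, 0.207 for Cxcl16, 0.275 for Cxcl11, 0.340 for Ccl4, 0.668 for Cxcl2 and 0.690 for Cxcl1. Without EV- replicate 1 that of Ccl4 was 0.0303. The log2 differences below are on the scale of log2(CPM + 1), which understates the change of ligands near or under 1 CPM (Ccl4, Cxcl1 and Cxcl11). The 3 comparisons against control share the control libraries, and the comparisons of EV+ and EV- with GN share the GN libraries, so their results are not independent of each other.

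**Figure D1:**
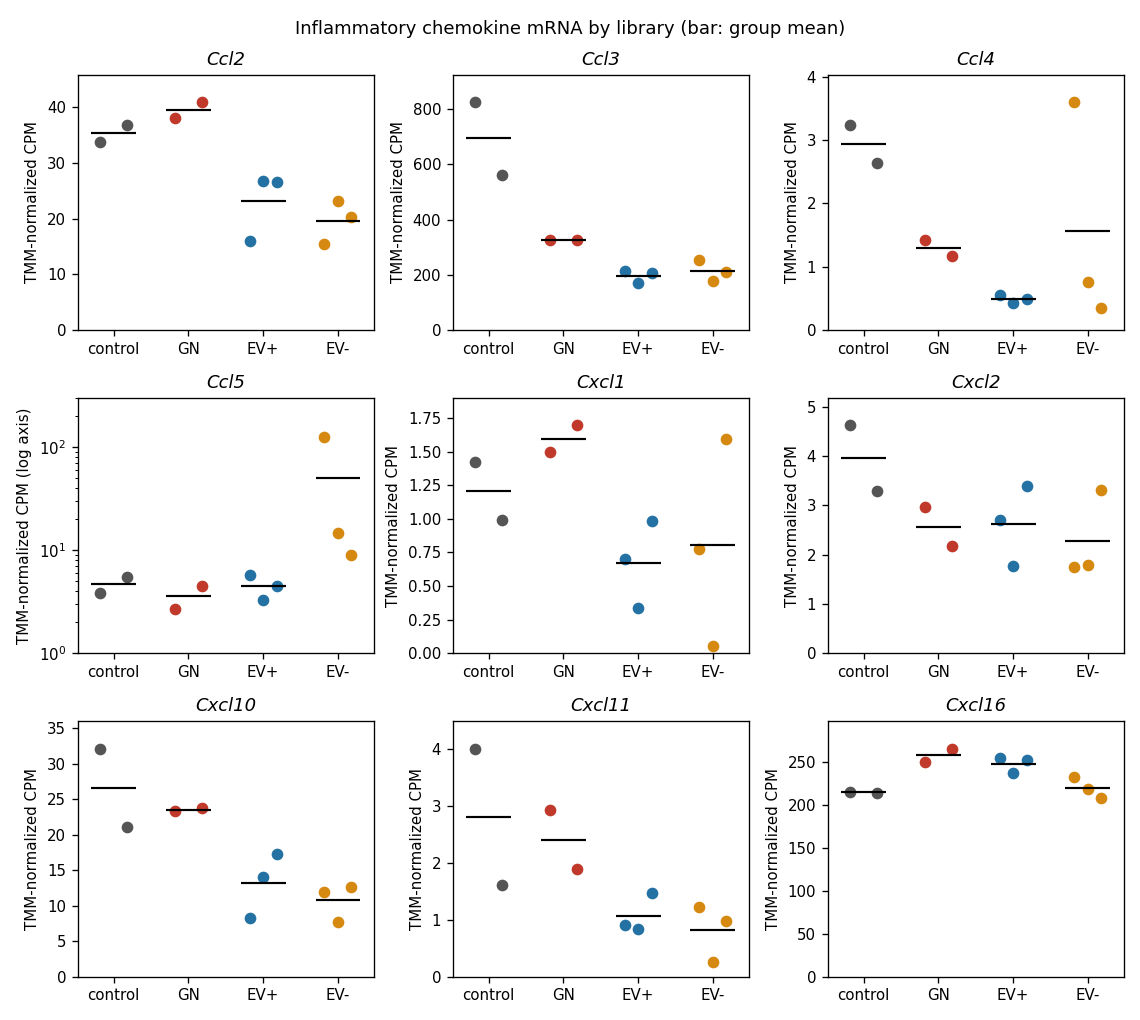
TMM-normalized CPM (y axis) of the 9 measured ligands in every library, with the 4 groups on the x axis. Each point is a library, the bar is the group mean, and the axis of Ccl5 is logarithmic. Ccl3 falls from 563 CPM or more in control to 253 CPM or less in EV+ and EV-, Ccl2 is below GN in every library of ASC-treated rats, and Ccl5 is at 126 CPM in a single EV- library.

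Ccl3 (MIP-1α), a ligand of Ccr1, showed the clearest change. It was at 825 and 563 CPM in control and at 325 CPM in each GN library. EV+ libraries held 214, 169 and 205 CPM, and EV- libraries held 253, 178 and 211 CPM. The groups therefore ran in the order control, GN and then EV+ and EV- together, with no overlap between control and GN or between GN and either group of treated rats. Of all genes, 11.8% were lower in every EV+ than in every GN library, and 12.8% in every EV- library. The share that separated control from GN was not counted, and an exact permutation test of 2 against 2 libraries cannot go below 0.333. GN macrophages had 53.2% less Ccl3 than control (log2 difference -1.07 ± 0.17 SE, adjusted p = 0.00786). EV+ macrophages had 71.7% less than control (-1.80 ± 0.16, adjusted p = 2.62e-05) and EV- macrophages 69.2% less (-1.68 ± 0.16, adjusted p = 5.32e-05). Among all 9003 genes ordered by their log2 difference from control, Ccl3 was the 6th most lowered in GN, the 10th in EV+ and the 9th in EV-. Against GN it was lower by 39.6% in EV+ (-0.73 ± 0.16, adjusted p = 0.187) and by 34.1% in EV- (-0.61 ± 0.16, adjusted p = 0.232), neither of which passed the test. EV+ against GN passed when control replicate 1 (adjusted p = 0.0747), control replicate 2 (0.0757) or EV- replicate 2 (0.0900) was left out. The difference of GN from control did not pass without GN replicate 1 (adjusted p = 0.101) or without limma's intensity trend (adjusted p = 0.118).

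Ccl2 (MCP-1), the ligand of Ccr2 that brings monocytes out of the blood, was not called in untreated nephritis but was called lower in EV- macrophages. It was at 33.7 and 36.8 CPM in control and at 37.9 and 40.9 CPM in GN. EV+ libraries held 15.9, 26.8 and 26.6 CPM, and EV- libraries held 15.4, 23.1 and 20.3 CPM. All libraries of ASC-treated rats were thus below all libraries of untreated rats, nephritic or not, and both replicates numbered 1 were the lowest of their groups. The share of all genes with this separation of treated from untreated rats was not counted. The mean in EV- (19.6 ± 3.9 CPM, SD, n = 3) was 50.3% lower than in GN (39.4 ± 2.1, n = 2), a log2 difference of -0.99 ± 0.21 SE that passed the test (adjusted p = 0.0833). It was 44.4% lower than in control (-0.83 ± 0.21, adjusted p = 0.0658). In EV+, the mean of 23.1 ± 6.2 CPM was 41.3% lower than in GN (-0.78 ± 0.21, adjusted p = 0.409) and 34.4% lower than in control (-0.62 ± 0.21, adjusted p = 0.165), and neither passed. GN and control differed by 0.16 ± 0.23 (adjusted p = 0.878). Leaving out a library of the GN group, which leaves that group with 1 library, took the adjusted p of EV- against GN to 0.510 without GN replicate 1 and 0.543 without GN replicate 2. It was also 0.135 without control replicate 1, 0.136 without control replicate 2, 0.118 without EV+ replicate 3, 0.197 without EV- replicate 1 and 0.137 without EV- replicate 3. For EV- against control it was 0.214 and 0.373 without control replicates 1 and 2, 0.102 and 0.103 without GN replicates 1 and 2, and 0.182 and 0.110 without EV- replicates 1 and 3.

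Ccl4 (MIP-1β), which is encoded beside Ccl3, was low throughout. It was at 3.24 and 2.64 CPM in control and at 1.42 and 1.17 CPM in GN. EV+ libraries held 0.547, 0.421 and 0.491 CPM, which is 10 to 14 reads, and EV- libraries held 3.60, 0.765 and 0.350 CPM. EV+ was below GN and GN below control in every library, whereas EV- replicate 1 was the highest of all 10 libraries. Of all genes, 11.8% were below GN in every EV+ library, and the share with GN below control was not counted. EV+ against control gave a log2 difference of -1.40 ± 0.40 SE, just outside the threshold (adjusted p = 0.1003). Without EV- replicate 1, which narrows the spread that all groups share, it was called (adjusted p = 0.00755), as it was without EV- replicate 2 (0.0992) or EV- replicate 3 (0.0606). EV- against control then went from -0.82 (adjusted p = 0.410) to -1.35 (adjusted p = 0.0281).

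Ccl5 (RANTES), a ligand of Ccr1 and Ccr3 made in quantity by T and NK cells, was high in EV- libraries, and its level differed widely among them. It was at 3.89 and 5.53 CPM in control, at 2.72 and 4.48 CPM in GN and at 5.78, 3.33 and 4.46 CPM in EV+. EV- libraries held 126, 14.8 and 9.07 CPM, each above every library of the other groups, a pattern whose share among all genes was not counted. The difference of EV+ from EV- was -2.33 ± 0.64 SE and did not pass the test (adjusted p = 0.733). When the 6 libraries of treated rats alone were fitted, paired by replicate number, it passed (adjusted p = 0.0554). That fit was added after seeing the data, and its pairing was inferred from these data. EV- was above EV+ in 3 of 3 pairs, which any pairing would give, since every EV- library was above every EV+ library. EV- against control gave 2.27 ± 0.72 (adjusted p = 0.159), and EV- against GN gave 2.59 ± 0.72 (adjusted p = 0.290). Without EV- replicate 1 the difference of EV+ from EV- was -1.21 (adjusted p = 0.546), that of EV- from control was 1.16 (adjusted p = 0.110) and that of EV- from GN was 1.48 (adjusted p = 0.0915). Without EV- replicate 3 the last pair were 2.99 (adjusted p = 0.0434) and 3.31 (adjusted p = 0.0743), and Ccl5 differed among the 4 groups without EV- replicate 1 (adjusted p = 0.0761) or EV- replicate 3 (0.0371).

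Granzymes are cytotoxic proteins of NK and T cells, and their transcripts followed Ccl5 from library to library. Gzmb was at 50.7, 8.10 and 2.96 CPM in EV- replicates 1 to 3 and between 0.631 and 1.76 CPM in the other libraries. Gzma was at 49.95, 5.61 and 4.12 CPM in EV- and between 0.963 and 2.34 CPM elsewhere. Nkg7, a protein of cytotoxic granules, was at 75.2, 10.1 and 5.68 CPM in EV- and between 1.81 and 5.08 CPM elsewhere. Gzmb was the gene whose log2(CPM + 1) was most like that of Ccl5 over the 10 libraries (Pearson's r = 0.993, among 7173 genes with a mean of at least 5 CPM), followed by Gzma (r = 0.992) and Nkg7 (r = 0.988). Without EV- replicate 1 these correlations were 0.967, 0.950 and 0.931 over 9 libraries. The part of NK or T cell RNA in the levels of Ccl5 and Ccl4 was not tested.

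**Figure D2:**
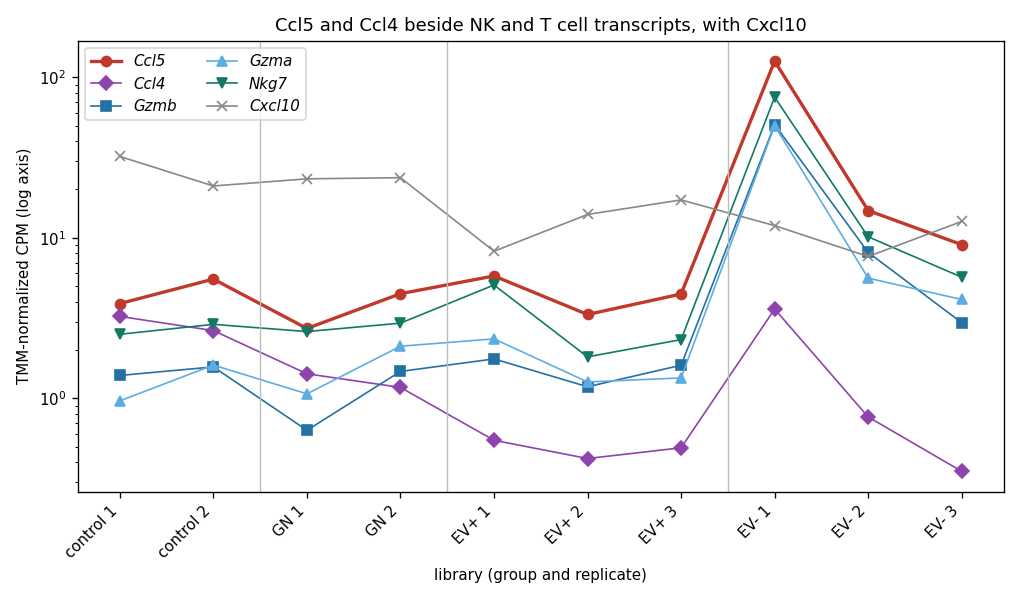
TMM-normalized CPM on a logarithmic y axis for Ccl5, Ccl4, the NK and T cell transcripts Gzmb, Gzma and Nkg7, and Cxcl10, in each library on the x axis (lines join the libraries for reading only). Ccl5 peaks at 126 CPM in EV- replicate 1, where Gzmb is at 50.7 CPM and Ccl4 at 3.60 CPM, while Cxcl10 is at 11.9 CPM in that library.

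The neutrophil attractants Cxcl1 and Cxcl2 were low throughout. Cxcl1 was at 1.43 and 0.990 CPM in control and at 1.499 and 1.695 CPM in GN. It was at 0.703, 0.337 and 0.981 CPM in EV+ and at 0.778, 0.0510 and 1.60 CPM in EV-. The lowest of these values is 1 read, so that EV- replicate 2 cannot be told from a library without Cxcl1. Cxcl2 was at 4.62 and 3.30 CPM in control, at 2.96 and 2.18 CPM in GN, at 2.70, 1.77 and 3.39 CPM in EV+ and at 1.75, 1.78 and 3.31 CPM in EV-. GN was below control in both libraries of Cxcl2, and EV+ was below GN in all libraries of Cxcl1. Of all genes, 11.8% were below GN in every EV+ library, and the share with GN below control was not counted. No difference of either gene passed the test in any of the 6 comparisons (lowest adjusted p = 0.367, for Cxcl2 in EV- against control). The 95% interval of EV+ against GN ran from -1.40 to 0.10 for Cxcl1 and from -0.60 to 0.61 for Cxcl2.

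The interferon-inducible neighbours Cxcl10 and Cxcl11 had their lowest levels in macrophages of ASC-treated rats, and Cxcl10 passed the test against control. Cxcl10 (IP-10) was at 32.1 and 21.0 CPM in control and at 23.3 and 23.7 CPM in GN. EV+ libraries held 8.24, 14.0 and 17.2 CPM, and EV- libraries held 11.9, 7.65 and 12.6 CPM. All 6 were below all 4 libraries of untreated rats, a pattern whose share among all genes was not counted. The log2 difference from control was -0.99 ± 0.27 SE in EV+ (50.5% lower, adjusted p = 0.0832) and -1.23 ± 0.27 in EV- (59.6% lower, adjusted p = 0.0357), and both passed. Against GN it was -0.85 ± 0.27 in EV+ (adjusted p = 0.496) and -1.09 ± 0.27 in EV- (adjusted p = 0.194, or 0.0619 without EV+ replicate 1), and neither passed. GN and control differed by -0.14 (95% interval -0.78 to 0.50, adjusted p = 0.922).

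Cxcl11 (I-TAC) was at 4.01 and 1.61 CPM in control and at 2.92 and 1.88 CPM in GN. EV+ libraries held 0.899, 0.842 and 1.47 CPM, and EV- libraries held 1.21, 0.255 and 0.973 CPM. These 6 libraries were also below all 4 libraries of untreated rats, a pattern whose share among all genes was not counted. No difference passed the test, the nearest being EV- against control (-1.04 ± 0.34, adjusted p = 0.175). Over the 10 libraries the log2 levels of Cxcl10 and Cxcl11 had a Pearson's r of 0.92, the highest of the 36 pairs of ligands. The calls of Cxcl10 leaned on single libraries. Without control replicate 1, the higher of the control pair, the adjusted p was 0.391 for EV+ and 0.286 for EV- against control. For EV+ against control it was also 0.138 without control replicate 2, 0.125 without GN replicate 1, 0.125 without GN replicate 2, 0.151 without EV+ replicate 1, 0.112 without EV+ replicate 2 and 0.109 without EV- replicate 1.

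Cxcl16 was even across libraries, and limma called no difference of it. It was at 215 and 214 CPM in control and at 250.2 and 265 CPM in GN. EV+ libraries held 254, 237 and 253 CPM, and EV- libraries held 232, 218 and 208 CPM. GN and EV+ were above control in every library, and EV- was below GN and EV+ in every library, but the differences were small. Of all genes, 12.8% were below GN in every EV- library, and the shares with the other separations were not counted. GN exceeded control by 20.2% (log2 difference 0.26 ± 0.08 SE, adjusted p = 0.200), EV+ exceeded control by 15.6% (0.21 ± 0.08, adjusted p = 0.211), and EV- was 14.9% below GN (-0.23 ± 0.08, adjusted p = 0.395). None passed the test, whereas DESeq2 called Cxcl16 in GN against control (adjusted p = 0.0846) and among the 4 groups (adjusted p = 0.0386).

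Counted by comparison with limma, 1 of 9 ligands was called in GN against control (Ccl3), where 1.75% of all genes were called. In EV+ against control 2 were called (Ccl3 and Cxcl10, background 3.63%), and in EV- against control 3 were called (Ccl2, Ccl3 and Cxcl10, background 2.84%). All these calls were lower than control. Besides these, DESeq2 called Cxcl16 higher in GN, and both DESeq2 and the likelihood-ratio test called Ccl2 and Ccl4 lower in EV+. In EV-, edgeR's quasi-likelihood and likelihood-ratio tests and DESeq2 called Ccl5 higher, and the likelihood-ratio test also called Cxcl11 lower. Of all 9003 genes, DESeq2 called 294 in GN, 540 in EV+ and 474 in EV- against control. The likelihood-ratio test called 516 in EV+ and 444 in EV-, and the quasi-likelihood test 234 in EV-. In EV- against GN, limma and the quasi-likelihood test called Ccl2 alone (background 0.378% for limma, 36 of 9003 genes for the quasi-likelihood test). In limma, 6 ligands and 707 of 9003 genes had an unadjusted p under 0.05. The likelihood-ratio test and DESeq2 each called 4 ligands (Ccl2, Ccl3 and Cxcl10 lower, Ccl5 higher), and 126 and 113 of all genes. In EV+ against GN limma called none of the 9 (background 0.122%). An unadjusted p under 0.05 was reached there by 3 ligands (Ccl2, Ccl3 and Cxcl10) and by 642 of 9003 genes. edgeR's quasi-likelihood test called 0 ligands and 9 genes in all. edgeR's likelihood-ratio test and DESeq2 each called 2 ligands (Ccl2 and Ccl3), and 43 and 41 of all genes. In terms of single libraries, 6 of 9 ligands (Ccl2, Ccl3, Ccl4, Cxcl1, Cxcl10 and Cxcl11) read lower in every EV+ than in every GN library, as were 11.8% of all genes. In EV- against GN, 5 of 9 were lower in every library (Ccl2, Ccl3, Cxcl10, Cxcl11 and Cxcl16), as were 12.8% of all genes. The median log2 difference of the 9 ligands was -0.14 in GN, -0.62 in EV+ and -0.82 in EV- against control, and -0.65 in EV+ and -0.61 in EV- against GN. The median of all genes lay between -0.01 and 0.01 in every comparison. Without EV- replicate 1 the calls were Ccl3 in GN against control, Ccl3 and Ccl4 in EV+ against control, Ccl3, Ccl4 and Cxcl10 in EV- against control, and Ccl5 (higher) in EV- against GN.

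**Figure D3:**
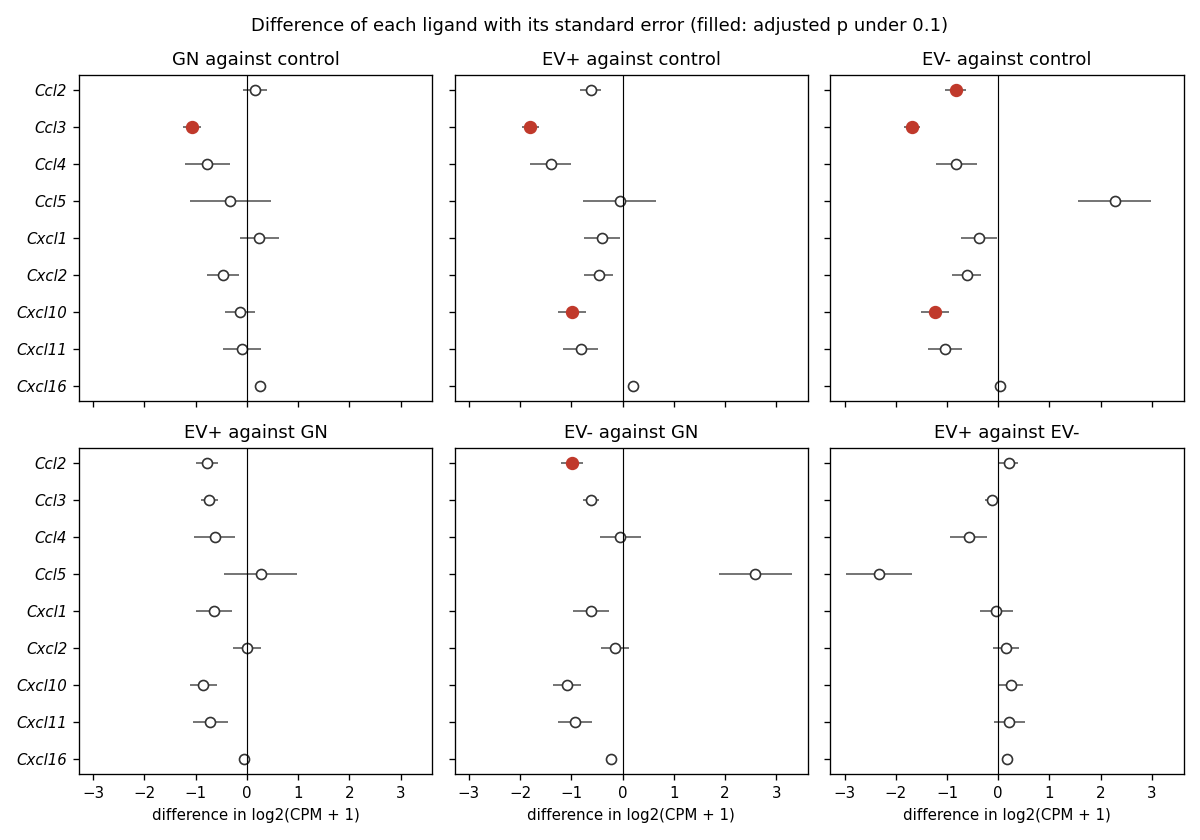
Difference in log2(CPM + 1) (x axis) of each ligand (y axis) in the 6 pairwise comparisons, 1 panel each. Points are limma estimates, bars are standard errors, and filled points have an adjusted p under 0.1. Ccl3 is at -1.07, -1.80 and -1.68 in the panels against control, and in the panel of EV+ against EV- only Ccl5, at -2.33, lies beyond 1 log2 unit.

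Between EV+ and EV- macrophages of treated rats, limma called none of the 9 ligands (background 0.0222%). An unadjusted p under 0.05 was reached by 2 ligands (Ccl5 and Cxcl16) and by 411 of 9003 genes. The quasi-likelihood test called 0 ligands, and the likelihood-ratio test and DESeq2 each called 1 (Ccl5, lower in EV+). Of all genes these 3 tests called 2, 57 and 34. In the paired fit of these 6 libraries, which called 0.544% of all genes, Ccl5 was the single ligand called (adjusted p = 0.0554). Ccl2 was higher in EV+ in 3 of 3 pairs (adjusted p = 0.726 in that fit), as was Cxcl16 (0.410), and Ccl3 was lower in 3 of 3 (0.648). The share of all genes with the same direction in 3 of 3 pairs was not counted. For Cxcl16 any pairing would give that count. The intervals that follow are of the unpaired fit. The 95% interval of the difference of EV+ from EV- ran from -0.42 to 0.19 for Ccl3, from -0.19 to 0.61 for Ccl2 and from -0.28 to 0.76 for Cxcl10. It ran from -0.43 to 0.87 for Cxcl11, from -0.71 to 0.64 for Cxcl1 and from -0.39 to 0.69 for Cxcl2. These intervals do not show that the groups were alike. For Cxcl16 it ran from 0.03 to 0.32, with every EV+ library above every EV- library, a separation that was not counted over all genes. The intervals of Ccl4 (-1.35 to 0.19) and Ccl5 (-3.70 to -0.95) were wider. The median log2 difference of the 9 ligands was 0.15.

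Of the receptors that read these ligands, Ccr1, Cxcr2 and Cxcr3 stayed at or under 1.51 CPM in every library, and none of their differences passed the test. Ccr2, Ccr3, Cxcr6, Ackr1 and Ackr2 were not analysed here.

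Among the other chemokine receptors, Cxcr4, the receptor of Cxcl12, and Ccrl2, an atypical receptor that binds chemerin, fell against control in each nephritic group. Of all genes, 1.75%, 3.63% and 2.84% were called in GN, EV+ and EV- against control. Neither receptor was called in the other comparisons. Cxcr4 fell by 0.84 in GN, by 0.70 in EV+ and by 0.66 in EV- (adjusted p = 0.00543, 0.00388 and 0.00978, the last 0.139 without control replicate 1). Ccrl2 was at 1068 and 924 CPM in control, 693 and 727 CPM in GN, 524, 639 and 595 CPM in EV+ and 562, 610.0 and 562 CPM in EV-. It fell by 0.48 in GN, by 0.76 in EV+ and by 0.78 in EV- (adjusted p = 0.0331, 0.000288 and 0.000266), and the fall in GN did not pass without control replicate 1 (0.283), GN replicate 1 (0.247) or GN replicate 2 (0.180). The 6 other chemokine ligands measured (Ccl6, Ccl9, Ccl24, Cxcl9, Cxcl12 and Cxcl17) gave no call by limma in any of 36 gene-by-comparison tests, with 8 at an unadjusted p under 0.05, and 0 calls by the quasi-likelihood test, 2 by the likelihood-ratio test and 1 by DESeq2. Ccl6, which lies beside Ccl3, was at 116.5 to 171.7 CPM. The 5 measured proteases that shed or trim chemokines gave no call by limma in 30 tests. Of these tests, 3 had an unadjusted p under 0.05, and the same 3 tools gave 0, 3 and 0 calls. In single comparisons, between 411 (EV+ against EV-) and 1350 (EV+ against control) of the 9003 genes had an unadjusted p under 0.05 in limma.

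Among the regulators of chemokine genes, limma called 1 of 12 NF-kB subunits and inhibitors in GN, 2 in EV+ and 2 in EV- against control, beside 1.75%, 3.63% and 2.84% of all genes, and none in the other comparisons. Nfkbia, the inhibitor that NF-kB itself induces, fell in GN (-0.62, adjusted p = 0.0658), EV+ (-0.55, adjusted p = 0.0444) and EV- (-0.61, adjusted p = 0.0316) against control. Nfkbiz, an inducible nuclear cofactor of NF-kB, fell in EV+ (-0.89, adjusted p = 0.0180) and EV- (-0.95, adjusted p = 0.0168), and was at -0.67 in GN (adjusted p = 0.169). Without control replicate 1 none of these calls passed (adjusted p = 0.428, 0.309 and 0.268 for Nfkbia in GN, EV+ and EV-, and 0.213 and 0.216 for Nfkbiz in EV+ and EV-). Those of Nfkbia were also lost without GN replicate 1 (0.165) or 2 (0.507) in GN, without EV+ replicate 2 in EV+ (0.107) and without EV- replicate 1 in EV- (0.110). Of 16 interferon pathway genes that act on Cxcl10 and Cxcl11, Irf3 was limma's single call, in EV+ against control (-0.39, adjusted p = 0.0927, background 3.63%), and it was lost when any of the 10 libraries was left out (adjusted p 0.105 to 0.435). DESeq2 also called Irf3 in GN and Jak1 in EV+ against control, and the likelihood-ratio test called Irf7 in GN and EV- against control. Of 7 genes of chemokine mRNA decay, limma called Zfp36 alone, as lower in 5 of the 6 comparisons. The shares of all genes called were 1.75%, 3.63% and 2.84% against control, and 0.122% and 0.378% for EV+ and EV- against GN. Zfp36 (tristetraprolin) marks chemokine and cytokine mRNAs for decay and is itself an early-response gene. It was at 2855 and 2326 CPM in control, 1770.1 and 1598 CPM in GN, 972, 912 and 831 CPM in EV+, and 1186, 882 and 896 CPM in EV-. Zfp36 fell by 0.62 in GN against control (adjusted p = 0.0480), and against GN it fell by 0.90 in EV+ (adjusted p = 0.0156) and by 0.78 in EV- (adjusted p = 0.0147). Its fall in GN was lost without control replicate 1 (0.376), GN replicate 1 (0.165) or GN replicate 2 (0.430). Against GN it was lost without GN replicate 1 (0.352 in EV+, 0.332 in EV-) or GN replicate 2 (0.135 and 0.108).

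Early-response genes, which cells induce within minutes of stimulation or handling, gave calls below control in GN, EV+ and EV-, as Ccl3 did. Cxcl10 was called below control in EV+ and EV- but not in GN (-0.14, adjusted p = 0.922 by limma). Of 23 early-response genes measured, 4 fell in GN, 16 in EV+ and 14 in EV- against control, where 1.75%, 3.63% and 2.84% of all genes were called. Against GN, 2 fell in EV+ (Junb and Ier2, background 0.122%) and 3 in EV- (Junb, Egr1 and Dusp1, background 0.378%). None rose. Without control replicate 1 the counts against control were 0, 10 and 8, without GN replicate 1 or GN replicate 2 those in GN against control and in both comparisons with GN were 0, and without EV- replicate 1 the counts were 6, 17 and 18 against control and 5 and 5 against GN. In EV+ against GN the count was also 1 with any of the EV+ libraries left out and 5 without EV- replicate 2, and in EV- against GN it was 2 without EV- replicate 2 or EV- replicate 3. Their summed level was 22575 to 26640 CPM in control, 16674 to 18387 CPM in GN, 11397 to 12806 CPM in EV+ and 11890 to 13633 CPM in EV-, so that GN lay between control and both groups of treated rats, as for Ccl3. Replicates numbered 1 of EV+ and EV- held more Hspa1a (285 and 525 CPM) and Jun (319 and 474 CPM) than their replicates 2 and 3 (Hspa1a 73.9 to 115 CPM, Jun 92.1 to 151 CPM), and these were the libraries of their groups with the least Ccl2. These genes were picked after their values were seen. Of the 23 early-response genes, 9 were highest in replicate 1 of both groups, among them Fos and Jund, and 5 were lowest there in both (Junb, Ier2, Nr4a1, Nr4a2 and Btg2). The part of cell handling in the levels of the ligands was not tested.

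The gene whose pattern was most like that of Ccl3 over the 10 libraries was Jund, a subunit of AP-1 (r = 0.993 among 7173 genes). Jund was at 1307 and 1039 CPM in control, 715 and 687 CPM in GN, 491, 390.2 and 463 CPM in EV+ and 612, 426 and 507 CPM in EV-. For Cxcl10 it was Dusp2, a phosphatase of MAP kinases (r = 0.942), which was at 148 and 93.1 CPM in control, 113 and 78.4 CPM in GN, 49.3, 74.2 and 87.3 CPM in EV+ and 49.8, 38.5 and 54.3 CPM in EV-. Both were among the early-response genes counted above. The nearest gene to Ccl2 was Adora2a (r = 0.928), an adenosine receptor, and to Cxcl16 it was Efhd2 (r = 0.940). These correlations are over libraries that share groups and depth and are given as descriptions.

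**Figure D4:**
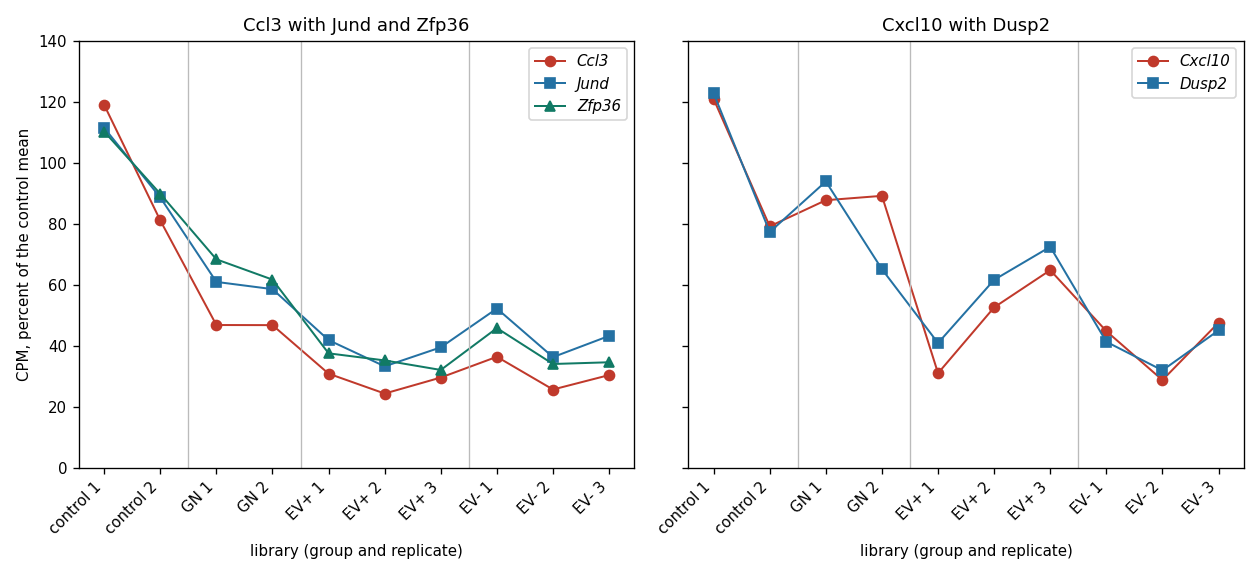
CPM as percent of the control mean (y axis) in each library (x axis), for Ccl3 with Jund and Zfp36 (left) and Cxcl10 with Dusp2 (right), with lines joining the libraries for reading only. Ccl3 goes from 119% and 81.1% in control to 46.8% in both GN libraries and 24.3% to 36.4% in EV+ and EV-, and Jund from 111% and 88.6% to 33.3% to 52.2%. Cxcl10 stays at 87.7% and 89.1% in GN and is at 28.8% to 64.8% in EV+ and EV-.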

How the data were processed

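RNA of sorted splenic macrophages (control n = 2, GN n = 2, EV+ n = 3, EV- n = 3) was sequenced as paired ends after SMART-Seq amplification, which keeps no strand. According to the submitters' processing notes and the Methods, the authors aligned reads to rn6 with STAR (version 2.5.3), counted those on RefSeq genes with HTSeq (version 0.6.0, intersection-strict), removed genes with a maximum CPM under 1 and applied TMM in edgeR. The deposited values are this normalized signal, TMM-normalized CPM, for 9003 genes (smallest row maximum 1.01 CPM). Division by the worth of 1 read gave whole reads for 100% of values (tolerance 0.01 read), 19270515 to 26617093 per library. Of the symbols, 18 had become dates and could not be matched. No pair of replicates agreed within sampling noise (chi-square over degrees of freedom 13.4 to 45.4). Floors of 3 reads cover counting error only, whereas the 95% intervals are limma's and rest on the spread between libraries.

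limma (version 3.58.1, R version 4.3.3) was fitted to log2(CPM + 1) with the 4 groups, an intensity trend and 6 residual degrees of freedom. Calls were made at a Benjamini-Hochberg adjusted p under 0.1 over all genes, and the procedure was tested on simulated data. P-values measure the spread between these libraries. Exact permutation tests over the libraries of 2 groups cannot go below 0.333 (2 against 2) or 0.1 (2 against 3 and 3 against 3), so they could not reach 0.05. Alternatives were limma without trend, edgeR (version 4.0.16) and DESeq2 (version 1.42.0) on the recovered reads, RLE scaling, a pseudocount of 0.1, at least 1 CPM in 2 libraries, an FDR of 0.05, only the groups compared, the replicate number as a block, and each library left out. edgeR's likelihood-ratio test and the paired fit of EV+ and EV- were added after seeing the data. Residuals of same-numbered EV+ and EV- libraries correlated in all 3 pairs (r = 0.203, 0.295 and 0.122 across genes), so the numbers were taken to pair these groups. Between differently numbered libraries r was -0.229 to -0.0129. Residuals within a group cancel out for each gene, so these values are bound to each other, and the pairing was not tested. The labels and the Methods do not state this pairing, and whether it reflects shared rats or shared preparation is not known. For control and GN r was 0.0878 between same-numbered libraries and -0.0878 between the others. With 2 libraries per group these values must mirror each other, so they are no comparison for EV+ and EV-. The members and lists were chosen with earlier results of these data known. The result of 1 receptor is not reported here. Named genes are the ligands, the called genes of the pathway lists, the known receptors of the ligands and, for ligands with a mean of at least 5 CPM, the most correlated gene. Granzymes and other markers, those of macrophages among them, Ccl6 and further neighbours in correlation were named after their values were seen. Tables were made with pandas (version 2.3.3), and promoters came from RefSeq GRCr8, whose coordinates are not those of rn6.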

Additional observations from a re-analysis of the deposited data

How the results depend on the processing

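Over 54 differences of a ligand in a comparison and 1035 values under alternatives, 936 kept their direction and their side of the threshold, 28 no longer passed it, 43 newly passed it, and no called difference changed sign. A further 28 values, of 12 differences, stayed uncalled but had the other sign. The numbers of the 9 ligands called moved as follows. Without the intensity trend they were 1 among the 4 groups, 0 in GN against control, 1 in EV+ and 1 in EV- against control, and 0 in EV- against GN. DESeq2 called 5 among the 4 groups, 2 in GN and 4 in EV+ against control, 2 in EV+ and 4 in EV- against GN, and 1 between EV+ and EV-. The likelihood-ratio test called 4 in EV+ and 5 in EV- against control, 2 in EV+ and 4 in EV- against GN, and 1 between EV+ and EV-. With only the groups compared there was 1 in EV+ and 2 in EV- against GN. At an FDR of 0.05 there was 1 in EV+ against control and 0 in EV- against GN. Leaving out single libraries gave 1 to 5 among the 4 groups, 0 to 1 in GN, 1 to 3 in EV+ and 1 to 3 in EV- against control, 0 to 1 in EV+ and 0 to 2 in EV- against GN, and 0 between EV+ and EV-. RLE scaling, the pseudocount of 0.1 and the filter on low values left all 7 counts as they were. The cause of these changes was not tested. When the replicate block was added to the model of all 10 libraries, 5 were called in EV- against control, 2 in EV+ against GN (Ccl3, adjusted p = 0.0234, and Ccl2, 0.0755) and 3 in EV- against GN, and none between EV+ and EV-, whereas the paired fit of EV+ and EV- alone called 1 (Ccl5). The numbers were taken to pair EV+ with EV- from correlations in these same data, and no label states that pairing. With control and GN they are shared only as numbers. Over all genes, 231 were called among the 4 groups, 158, 327 and 256 in GN, EV+ and EV- against control, 11 and 34 in EV+ and EV- against GN and 2 between EV+ and EV-. In the same order these counts were 93, 60, 186, 94, 0, 6 and 0 without the trend, 616, 292, 516, 444, 43, 126 and 57 by the likelihood-ratio test, and 543, 294, 540, 474, 41, 113 and 34 by DESeq2. With the block 30 and 53 were called in EV+ and EV- against GN and 5 between EV+ and EV- (49 in the paired fit). At an FDR of 0.05 there were 157 genes among the 4 groups, 97, 192 and 143 against control and 8 and 21 against GN. With only the groups compared, EV+ against control gave 155, and a pseudocount of 0.1 gave 4 between EV+ and EV-. Ligands under 1 CPM rest on few reads, down to 1 for Cxcl1, and their differences could not be measured closely at this depth.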
